A study of Mus musculus with 22 samples.

Results

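The Dlx genes are the mouse relatives of the fly gene Distal-less. The 6 members, Dlx1 to Dlx6, were taken by exact gene symbol from the 34866 genes of the culture tables and the 23911 genes of the cartilage table, and all 6 were listed in each. Messenger RNA was compared between mice with Dnmt1 deleted in Prrx1-Cre;Dnmt1 flox/flox animals (cKO) and animals labelled Dnmt1 flox (control). Dnmt1 is the enzyme that copies DNA methylation onto newly made strands. Prrx1-Cre is active in limb bud mesenchyme, so it deletes in the precursors of several limb tissues and not in cartilage alone. Primary chondrocytes from knee articular cartilage of mice at postnatal day 3 to 5 were sampled untreated (day 0, 3 control and 3 cKO cultures) or after 3 days with bone morphogenetic protein 2 (BMP2, labelled 100 ng/µl; day 3, 4 control and 4 cKO cultures). Collagenase-cleaned cartilage at postnatal day 5 gave 4 control and 4 cKO libraries, in each of which replicates 1 and 2 were male and 3 and 4 female. The replicates are labelled biological in the cultures. Apart from sex, nothing in the labels ties a cartilage library to a separate animal. The p-values there measure the spread between these samples, which within a sex may be technical.

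Dlx proteins are homeodomain transcription factors. They are encoded as convergent gene pairs that share enhancers, and each pair tends to be expressed in the same cells. Dlx1 and Dlx2 act in forebrain interneurons and in the branchial arches, Dlx3 and Dlx4 in epidermis, hair, tooth and placenta, and Dlx5 and Dlx6 in the developing jaw, limb and skeleton. In cartilage and bone, Dlx5 and Dlx6 are known to promote chondrocyte maturation and osteoblast differentiation, and several Dlx genes respond to BMP signalling.

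In GRCm38 with the GENCODE M21 annotation, Dlx1 (ENSMUSG00000041911, chr2:71528113-71533981, plus strand) and Dlx2 (ENSMUSG00000023391, chr2:71543408-71546754, minus strand) face each other across 9426 bp. Dlx3 (ENSMUSG00000001510, chr11:95120119-95125296, plus) and Dlx4 (ENSMUSG00000020871, chr11:95140447-95146263, minus) are 15150 bp apart. Dlx6 (ENSMUSG00000029754, chr6:6863334-6868568, plus) and Dlx5 (ENSMUSG00000029755, chr6:6877805-6882085, minus) are 9236 bp apart. Antisense genes cover all 5869 bp of Dlx1 (Dlx1as), all 5235 bp of Dlx6 (Dlx6os1) and 1212 bp of Dlx4 (Dlx4os), and Dlx6os2 covers a further 1354 bp of Dlx6. Whether the authors counted by strand is not given in the sources used here, so reads of Dlx1, Dlx4 and Dlx6 may include reads of those partners, which were not analysed here in the cultures. The estimated count of Dlx6 was not a whole number in any of the 14 cultures, which arises where counting divides reads between features. How reads were divided is not given in the sources used here.

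The promoter of Dlx2 is shown because Dlx1 and Dlx2 were the members with the largest genotype difference and because CG dinucleotides are the substrate of Dnmt1. The sequence is from RefSeq (GRCm38.p6), chr2:71546755-71547004 on the minus strand, the 250 bases before the transcription start, written 5′ to 3′ with each CG in capitals.
Dlx2 promoter: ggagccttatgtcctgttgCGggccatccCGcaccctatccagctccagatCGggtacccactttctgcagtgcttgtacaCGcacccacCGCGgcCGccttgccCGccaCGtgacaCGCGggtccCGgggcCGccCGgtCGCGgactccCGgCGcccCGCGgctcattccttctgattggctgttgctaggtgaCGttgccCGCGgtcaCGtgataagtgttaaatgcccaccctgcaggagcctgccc
It holds 24 CG, a GC content of 66.4% and a CG frequency 0.890 times that expected from its base composition. Of 32851 RefSeq mouse promoter windows of the same length, 12.0% held as many CG or more, with a median of 6 and quartiles of 2 and 16. The window of Dlx1, chr2:71529195-71529444 on the plus strand, held 22 CG, which 14.8% of windows reached. That window lies inside the Dlx1 gene as GENCODE M21 annotates it and overlaps a Dlx1 exon, so its count is not that of sequence upstream of the annotated gene, and its sequence is not shown. The homeodomain core TAATTA, a palindrome and so the same on both strands, was in neither window and in 4.84% of all windows. DNA methylation was not measured in these libraries, and only these 2 of the 6 members matched the promoter table.

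Dnmt1 itself was checked first. In CPM (counts relative to the TMM-scaled library size; mean ± SD), day 0 control cultures had 157.6 ± 6.88 and cKO cultures 29.0 ± 3.26 (n = 3 each), day 3 cultures 68.9 ± 8.53 and 25.7 ± 11.6, and cartilage 41.6 ± 6.12 and 12.9 ± 1.05 (n = 4 each), and no cKO sample reached a control sample in any of these settings. Libraries held from 41749546 to 51741669 counts (day 0), from 14434320 to 18918905 (day 3) and from 1100198 to 1888896 (cartilage). A member with at most 3 counts in a library is called at the floor, which corresponds to between 0.0582 and 0.0720 CPM for day 0 libraries, 0.148 and 0.206 CPM for day 3 and 1.51 and 2.70 CPM for cartilage, and covers counting error only. The 9 chondrocyte markers, among them Col2a1, Acan and Sox9, were all present, but their summed day 0 level was 136000 to 145000 CPM in control and 48800 to 59700 CPM in cKO cultures. After BMP2 the control cultures held 85900 to 107000 CPM of them, and the cKO cultures held 15000, 11200, 15900 and 1130 CPM (replicates 1 to 4). The library of cKO replicate 4 therefore stood apart, and the day 3 genotype results are also given without it, as counts and medians for groups of other genes.

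At day 0, Dlx1 and Dlx2 were higher in every cKO culture than in any control culture, by the widest margins in the family. Dlx1 was at 0.131, 0.148 and 0.139 CPM in control replicates 1 to 3 (6, 7 and 6 counts) and at 2.35, 1.38 and 3.18 CPM in cKO replicates 1 to 3 (98, 60 and 164 counts). The control cultures thus lay close together just above the floor, and the lowest cKO culture was well above them. Control counts were under the 10 of the expression filter, so Dlx1 was tested at day 0 through its cKO cultures alone. On average control cultures had 0.139 ± 0.00841 CPM and cKO cultures 2.30 ± 0.902 CPM (SD, n = 3 each), a 16.3-fold difference (log2 fold change 4.03, SE 0.386, edgeR adjusted p = 1.78e-05). Dlx2, its convergent partner, was at 1.94, 1.499 and 1.62 CPM in control and at 10.7, 9.23 and 13.5 CPM in cKO cultures. The groups did not overlap, and cKO replicate 3 was highest for both genes. The fitted difference was 6.59-fold (log2 fold change 2.72, SE 0.165, edgeR adjusted p = 1.09e-06). Of the 15530 genes tested, 332 had a larger log2 fold change than Dlx1 and 542 a larger one than Dlx2.

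The other members did not pass the test at day 0. Dlx5, the bone and cartilage factor, was at 8.93, 8.66 and 9.35 CPM in control and 12.0, 8.52 and 10.3 CPM in cKO cultures (log2 fold change 0.19, SE 0.116, edgeR adjusted p = 0.183). The groups overlapped through cKO replicate 2, and without that library the difference was called (0.30, adjusted p = 0.0182). Dlx6 was at 0.633, 0.401 and 0.369 CPM in control and 0.696, 0.551 and 0.349 CPM in cKO cultures (log2 fold change 0.16, edgeR adjusted p = 0.698). Its groups overlapped almost completely. Dlx3, which is best known from epidermis, hair and teeth, was at 1.595, 1.605 and 1.25 CPM in control and 1.15, 1.79 and 2.23 CPM in cKO cultures (log2 fold change 0.22, edgeR adjusted p = 0.444). Here the lowest value of all 6 cultures was also a cKO culture. Dlx4 did not pass the expression filter at day 0: it had 5, 8 and 2 counts in control and 6, 10 and 5 counts in cKO cultures (exact two-sided permutation test p = 0.5, smallest possible 0.1). Thus 2 of the 5 members tested were called, both higher, where 64.5% of all genes tested were called in either direction and 33.0% were called higher. Dlx1 entered this count through its cKO cultures alone.

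**Figure D1:**
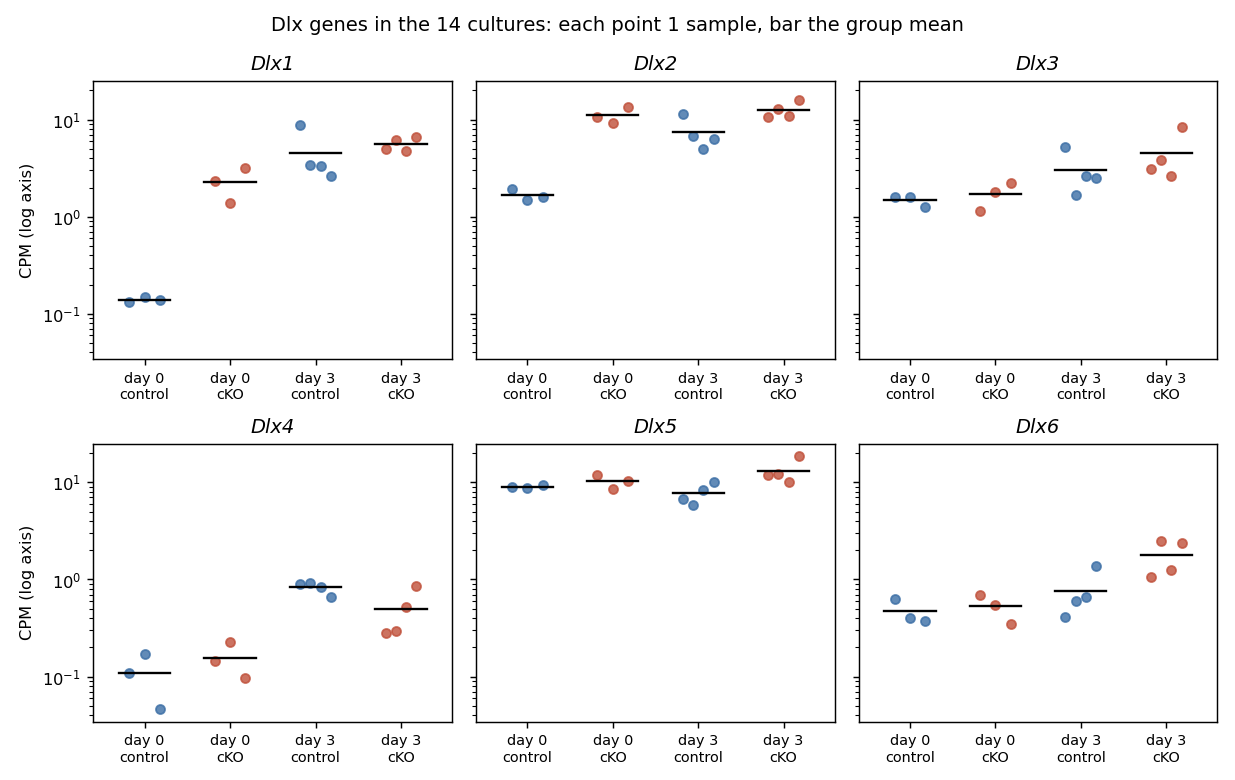
CPM (log axis, counts scaled by TMM over the 14 cultures) of each Dlx gene in every culture, control in blue and cKO in red, with bars at the group means. Dlx1 in day 0 control cultures sits at 0.131 to 0.148 CPM and every other group of Dlx1 lies above 1 CPM, while Dlx5 stays between 5.81 and 18.6 CPM in all 14 cultures.

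After 3 days with BMP2 the picture differed. Dlx1 was now at 8.91, 3.42, 3.30 and 2.64 CPM in control and at 5.00, 6.17, 4.80 and 6.68 CPM in cKO cultures. Control replicate 1 was the highest of all 8 cultures, and the other 3 control cultures lay below every cKO culture. The difference was not called (log2 fold change 0.33, SE 0.374, edgeR adjusted p = 0.491), and without control replicate 1 it was (0.87, adjusted p = 0.0108). Leaving out cKO replicate 4 gave no call (0.24, edgeR adjusted p = 0.624). Dlx2 was at 11.6, 6.78, 4.98 and 6.39 CPM in control and at 10.7, 12.8, 11 and 15.8 CPM in cKO cultures. Again control replicate 1 alone reached the cKO range. Dlx2 was called higher in cKO (log2 fold change 0.78, SE 0.260, edgeR adjusted p = 0.0352), but the call was lost without control replicate 2, 3 or 4 or without cKO replicate 2 (log2 fold change 0.62 to 0.78, adjusted p from 0.0687 to 0.0934). Without cKO replicate 4 the call held (0.64, edgeR adjusted p = 0.0460).

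The drop in the genotype difference of the Dlx1 and Dlx2 pair from day 0 to day 3 was itself tested, as the interaction of genotype and day over the 14 cultures. For Dlx1 the log2 difference between the genotype effects, day 3 minus day 0, was −3.69 (SE 0.623, edgeR adjusted p = 0.00196), and for Dlx2 it was −1.96 (SE 0.355, adjusted p = 0.00305). Only 33 of the 14909 genes tested had a smaller interaction value than Dlx1, and 196 had a smaller one than Dlx2. Both calls held in every alternative run, leaving out any single culture included, with values of −3.96 to −3.16 for Dlx1 and −2.11 to −1.67 for Dlx2. The other 4 members were not called: Dlx3 had 0.36, Dlx4 −1.25, Dlx5 0.57 and Dlx6 1.07 (adjusted p = 0.742, 0.232, 0.22 and 0.265). Thus 2 of 6 members were called, both lower, where 16.8% of all genes tested were called in either direction and 6.89% were called lower.

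From day 0 to day 3, Dlx1 rose in both genotypes and Dlx2 rose in control cultures. Day, BMP2 and count table changed together, so these changes have no single source, and both changes share their cultures with the genotype comparisons above. In control cultures Dlx1 rose 31.7-fold, from 0.139 ± 0.00841 (SD, n = 3) to 4.57 ± 2.91 CPM (SD, n = 4; log2 fold change 4.99, SE 0.512, edgeR adjusted p = 4.23e-06). Only 24 of 14909 genes had a larger log2 fold change. Dlx2 rose 4.39-fold there, from 1.69 ± 0.230 to 7.43 ± 2.87 CPM (log2 fold change 2.13, SE 0.270, adjusted p = 2.42e-05). In cKO cultures Dlx1 rose 2.45-fold, to 5.66 ± 0.909 CPM (log2 fold change 1.29, SE 0.382, adjusted p = 0.0100), a call lost without day 0 cKO replicate 2 (1.02, adjusted p = 0.0505). Dlx2 was at 11.1 ± 2.17 CPM at day 0 and 12.6 ± 2.32 CPM at day 3 in cKO cultures (log2 fold change 0.18, SE 0.240, adjusted p = 0.542), with overlapping groups.

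Dlx5 and Dlx6, the pair with known roles in chondrocyte maturation, were higher in cKO cultures at day 3. Dlx5 was at 6.71, 5.81, 8.40 and 10.15 CPM in control and at 11.9, 12.2, 10.17 and 18.6 CPM in cKO cultures. The groups did not overlap, although the highest control and the lowest cKO culture were nearly equal. The difference was 1.72-fold (log2 fold change 0.79, SE 0.240, edgeR adjusted p = 0.0253). It was 0.56 without cKO replicate 4, the highest culture (adjusted p = 0.0283), and was not called without control replicate 1 or without control replicate 2 (0.72 and 0.66, adjusted p = 0.0676 and 0.0700).

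Dlx6 was at 0.411, 0.597, 0.660 and 1.38 CPM in control and at 1.07, 2.52, 1.25 and 2.36 CPM in cKO cultures. Control replicate 4 lay above cKO replicates 1 and 3, and the other 3 control cultures lay below every cKO culture. The difference was 2.38-fold (log2 fold change 1.25, SE 0.440, edgeR adjusted p = 0.0431). It lost its call without control replicate 1, 2 or 3 or without cKO replicate 2 or 4 (log2 fold change 1.05 to 1.19, adjusted p from 0.0670 to 0.111). From day 0 to day 3, Dlx6 rose 3.39-fold in cKO cultures (log2 fold change 1.76, SE 0.427, adjusted p = 0.00299) and was not called in control cultures (0.69, SE 0.452, adjusted p = 0.212). Dlx5 was called in neither genotype (0.36 in cKO, adjusted p = 0.154, and −0.21 in control, adjusted p = 0.427). The interaction was called for neither gene, as given above.

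Dlx3 at day 3 was at 5.28, 1.68, 2.64 and 2.50 CPM in control and at 3.09, 3.85, 2.66 and 8.41 CPM in cKO cultures. The groups overlapped, with control replicate 1 and cKO replicate 4 each far above the rest of their group (log2 fold change 0.60, SE 0.464, edgeR adjusted p = 0.315). Leaving out cKO replicate 4 gave 0.10 (adjusted p = 0.833). Dlx3 rose 2.59-fold from day 0 to day 3 in cKO cultures (log2 fold change 1.38, SE 0.436, adjusted p = 0.0147), a call lost without day 0 cKO replicate 1 (1.15, adjusted p = 0.0658). In control cultures it was 2.02-fold apart between the days and not called (1.02, adjusted p = 0.0663), and it was called there without day 3 control replicate 2 (1.22, adjusted p = 0.0365).

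Dlx4, best known from placenta and blood progenitors, was at 0.891, 0.923, 0.840 and 0.659 CPM in control and at 0.281, 0.296, 0.521 and 0.864 CPM in cKO cultures at day 3. It was the single member with a negative log2 fold change there, and cKO replicate 4 lay within the control range while the other 3 cKO cultures lay below it. The difference was not called (log2 fold change −0.74, SE 0.390, edgeR adjusted p = 0.149), and without cKO replicate 4 it was (−1.16, SE 0.346, adjusted p = 0.0180). These values rest on 5 to 17 counts a library. Between the days Dlx4 rose 7.35-fold in control cultures, from 0.108 ± 0.0614 to 0.828 ± 0.118 CPM (log2 fold change 2.88, SE 0.477, adjusted p = 2.15e-04), and 3.08-fold in cKO cultures, from 0.157 ± 0.0672 to 0.491 ± 0.272 CPM (1.62, SE 0.472, adjusted p = 0.00905).

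Over the family, 3 of 6 members were called higher in cKO at day 3, where 48.1% of all genes tested were called in either direction and 25.5% were called higher. Without cKO replicate 4 the count was also 3, now Dlx2 and Dlx5 higher and Dlx4 lower. The day 0 to day 3 change was called for 3 of 6 members in control cultures (Dlx1, Dlx2 and Dlx4), where 56.9% of all genes tested were called and 28.1% were called higher. It was called for 4 of 6 in cKO cultures, with or without cKO replicate 4 (Dlx1, Dlx3, Dlx4 and Dlx6 with all), where 62.2% of all genes tested were called and 32.4% were called higher. All 7 of these calls were rises.

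**Figure D2:**
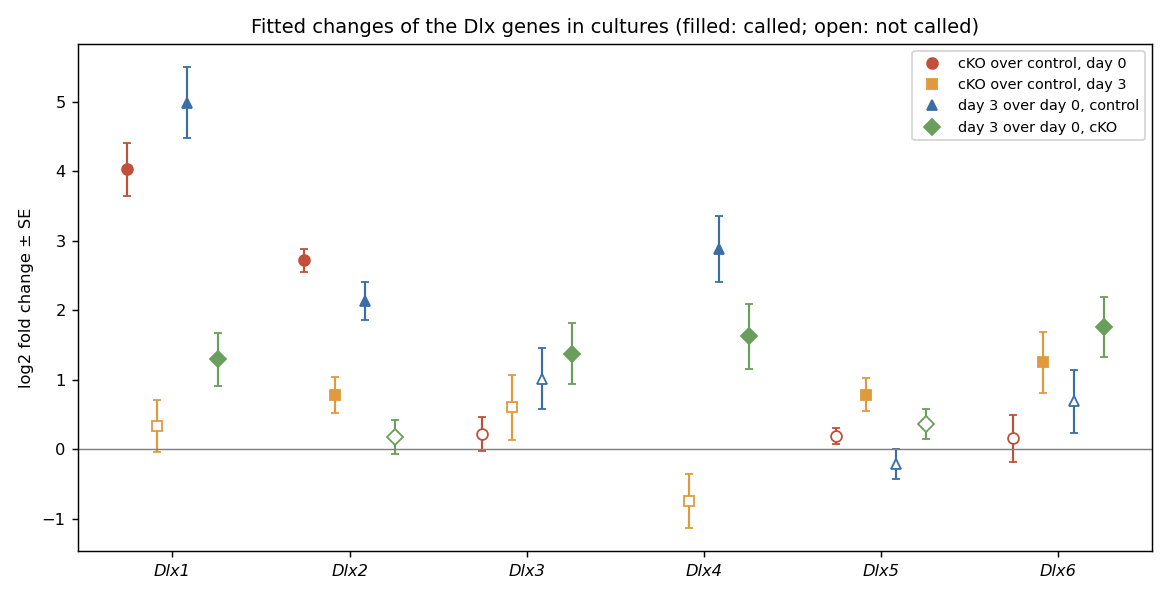
Log2 fold change ± SE of each Dlx gene for the genotype effect at day 0 and day 3 and for day 3 over day 0 within each genotype, from edgeR; filled symbols were called at an adjusted p under 0.05 and Dlx4 was not tested at day 0. Dlx1 and Dlx2 have their largest genotype effect at day 0 (4.03 and 2.72) and their largest change between days in control cultures (4.99 and 2.13).

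The order of the members' levels can be compared per length, as CPM per kilobase of the main annotated transcript. Dlx5 was highest in all 4 culture groups, at 6.31 ± 0.245 in day 0 control, 7.21 ± 1.21 in day 0 cKO, 5.46 ± 1.35 in day 3 control and 9.28 ± 2.58 in day 3 cKO cultures. Dlx2 came next in each group, at 0.682 ± 0.0932, 4.499 ± 0.878, 3.01 ± 1.16 and 5.09 ± 0.940 CPM per kilobase in the same order. By this length the samples of Dlx5 and Dlx2 overlapped in day 3 control cultures and in no other group. In day 0 control cultures Dlx2 was followed by Dlx3 (0.569 ± 0.0782), Dlx6 (0.211 ± 0.0650), Dlx4 (0.0474 ± 0.0269) and Dlx1 (0.0339 ± 0.00205). There Dlx2 overlapped Dlx3 and Dlx4 overlapped Dlx1, so those neighbours did not differ beyond their spread.

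Dlx1 thus was last of the 6 genes in day 0 control cultures and came behind Dlx5, Dlx2 and Dlx3 in the other groups. In day 0 cKO cultures Dlx3 was at 0.661 ± 0.208 and Dlx1 at 0.560 ± 0.2195 CPM per kilobase, with overlapping samples, and Dlx6 (0.240 ± 0.0787) and Dlx4 (0.0687 ± 0.0295) lay below them. In day 3 cKO cultures Dlx3 (1.73 ± 1.02) again overlapped Dlx1 (1.38 ± 0.221), and Dlx6 (0.812 ± 0.336) overlapped Dlx3 and lay below every Dlx1 sample. Dlx4 (0.215 ± 0.119) was last there and overlapped no other member. In day 3 control cultures Dlx3 (1.16 ± 0.598) overlapped both Dlx2 and Dlx1 (1.11 ± 0.709), and Dlx4 (0.363 ± 0.0516) overlapped Dlx6 (0.344 ± 0.193). With the length of all exons in place of the main transcript, Dlx6 lay above Dlx4 in day 3 control cultures (0.321 and 0.253 CPM per kilobase). By that length the samples of Dlx5 and Dlx2 also overlapped in day 0 and day 3 cKO cultures, and Dlx6 overlapped Dlx1 in day 3 cKO cultures.

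Summed markers of several other cell types differed between the genotypes in the cultures. The genes of a list did not always share a direction. Of all genes tested, 64.5% were called at day 0 and 48.1% at day 3. The 7 skeletal muscle markers summed to 0.115 to 0.371 CPM in control and 10.7 to 17.4 CPM in cKO cultures at day 0. At day 3 they summed to 0.163 to 0.206 CPM in control cultures, with all 7 at the floor, and to 560, 787, 930 and 58.5 CPM in cKO replicates 1 to 4. The 8 keratinocyte markers summed to 6.23 to 7.44 CPM in control and 13.9 to 14.1 CPM in cKO cultures at day 0. Of 5 tested then, 1 was called, Dsp, which was higher (log2 fold change 1.56). At day 3 the markers summed to 7.06 to 8.52 and 5.82 to 19.2 CPM. Of 2 tested there, 1 was called, Krt10, which was lower (−0.69). The 6 osteoblast markers summed to 1590 to 2820 CPM in control and 1190 to 1520 CPM in cKO cultures at day 0. Of 4 tested then, Dmp1 was called higher (1.09) and Col1a1 lower (−0.75). At day 3 the markers summed to 3680 to 5060 and 6800 to 8690 CPM, with 5 of 6 tested called higher. The part of muscle, epithelial or bone cells in the Dlx values was not tested, and fewer cells of a type cannot be told apart from less RNA per cell in these bulk samples.

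Dlx1 and Dlx2 are the interneuron genes of the family, and neuron markers were low in both genotypes at day 0. The part of neurons in the Dlx values was not tested. The 6 neuron markers summed to 0.623 to 1.08 CPM in control and 0.640 to 0.711 CPM in cKO cultures, and Snap25 and Gad1 were at the floor in all 6 cultures. Of 2 tested then, Syt1 was called lower in cKO (log2 fold change −1.49, edgeR adjusted p = 0.0185). Elavl4 was not called (0.72, edgeR adjusted p = 0.0687), where 64.5% of all genes tested were called. At day 3 they summed to 16.5 to 35.0 CPM in control and 3.82 to 26.0 CPM in cKO cultures. Gad1, Gad2 and Snap25 were at the floor in all 8. In the control cultures 5 of the 6 were at the floor, leaving Syt1 alone above it. The 2 tested at day 3 went opposite ways, where 48.1% of all genes tested were called. Syt1 was lower in cKO (log2 fold change −3.50, edgeR adjusted p = 0.00208) and Stmn2 higher (6.53, adjusted p = 0.00756). The remaining lists follow for day 0. The 5 fibroblast, tendon and joint surface markers summed to 1600 to 1930 CPM in control and 1120 to 1300 CPM in cKO. Among them Prg4 (log2 fold change 1.46) and Scx (1.15) were called higher, and 3 were called lower. The 4 osteoclast markers summed to 164 to 169 and 75.6 to 90.1 CPM, with Mmp9 called higher (1.15) and Ctsk lower (−1.005). The 4 hypertrophic chondrocyte markers summed to 1300 to 1340 CPM in control and 684 to 799 CPM in cKO cultures at day 0. At day 3 they summed to 215 to 448 and 643 to 2480 CPM, but the genes went both ways. Col10a1 (log2 fold change 3.28) and Mmp13 (2.71) were called higher in cKO, and Ihh (−2.88) and Panx3 (−2.37) lower. The call of Col10a1 was lost without cKO replicate 4. The 3 adipocyte markers summed to 6.95 to 8.57 and 16.5 to 17.3 CPM at day 0, the 3 endothelial markers to 0.993 to 1.2 and 1.67 to 2.0 CPM, and the 4 leukocyte and erythroid markers to 1.2 to 1.33 and 2.57 to 3.22 CPM, with the globin genes Hba-a1 and Hbb-bs at 0.

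In postnatal cartilage Dlx1, Dlx2 and Dlx4 were at the floor in every library, and Dlx5 was above it in every library. Dlx1 had 0 counts in all 4 control libraries and 0, 0, 2 and 0 in the cKO libraries. Dlx2 had 0, 1, 1 and 0 counts in control and 1, 0, 0 and 0 in cKO libraries, and Dlx4 had 1, 1, 0 and 0 against 0, 2, 1 and 0. No library of these 3 genes passed the floor of 1.51 to 2.70 CPM, so no difference was detectable at this depth (exact two-sided permutation test p = 1.0, 0.429 and 0.543). Dlx3 had 4, 12, 3 and 7 counts in control and 8, 3, 13 and 2 in cKO libraries (4.79 and 5.52 CPM on average). Its groups overlapped over their whole range (exact two-sided permutation test p = 0.83, smallest possible 0.0286).

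Dlx5 had the most counts of the members in the whole-number cartilage table, which comes from 3′ libraries, and was the only one that passed the expression filter. It had 14, 26, 10 and 16 counts in control and 6, 20, 9 and 8 counts in cKO libraries, or 10.3, 21.7, 8.996 and 8.04 against 4.92, 17.1, 7.82 and 6.72 CPM. Replicate 2, a male library, was highest in both genotypes, and the groups overlapped. The log2 fold change was −0.39 (SE 0.368, edgeR adjusted p = 0.571, with sex as a covariate), so 0 of 1 member tested was called, where 6.19% of all genes tested were called. With the authors' estimated counts 2 members were tested and 0 called, and DESeq2 called 0 as well (the unadjusted edgeR p of Dlx5 was 0.304). Pool 1 held every control library and pool 2 every cKO library of cartilage, so pool and genotype cannot be told apart.

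For Dlx6 the 2 deposited cartilage tables gave different levels. The whole-number table had 4, 2, 2 and 3 counts in control and 8, 1, 3 and 0 in cKO libraries (exact two-sided permutation test p = 0.857). The table of estimated counts had 17, 20, 21 and 19 counts in control and 23, 22, 22 and 17 in cKO libraries, none of them whole before rounding. The genotypes overlapped in both tables. Dlx5 differed less between the tables, with 18, 33, 14 and 24 against 8, 27, 10 and 10 estimated counts. Of the antisense genes, Dlx1as had 0 to 2 counts and Dlx6os1 0 to 3 counts in the libraries of the whole-number table.

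**Figure D3:**
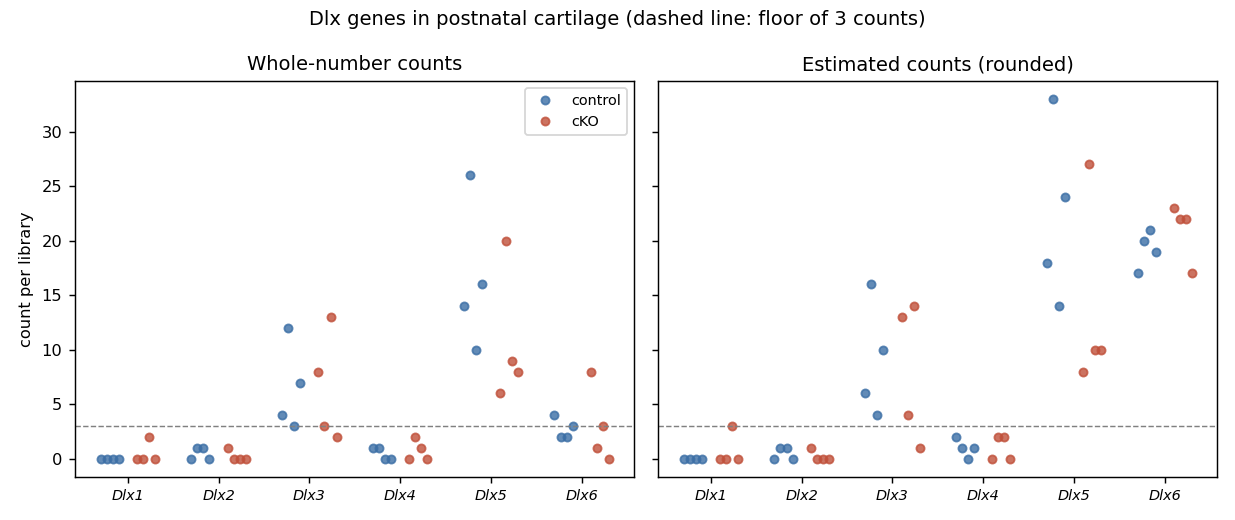
Counts per library of the 6 Dlx genes in cartilage, in the whole-number table (left) and the table of estimated counts (right), control in blue and cKO in red; the dashed line marks the floor of 3 counts. Dlx1, Dlx2 and Dlx4 do not pass the floor in any library, and Dlx6 moves from 0 to 8 counts on the left to 17 to 23 on the right.

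The genes around each pair were examined for a shared direction. Within 250 kb of Dlx1 and Dlx2 lie 4 other protein-coding genes, all tested. At day 0, 1 was higher and 3 lower, where 64.5% of all genes tested were called, and none had a change as large as that of Dlx1 or Dlx2. Metap1d, a mitochondrial methionine aminopeptidase gene 2.9 kb from Dlx1, was lower in cKO cultures (log2 fold change −0.32, SE 0.0659, edgeR adjusted p = 0.00199). The integrin gene Itga6 (−0.62, adjusted p = 1.92e-07) and the mitochondrial carrier Slc25a12 (−0.32, adjusted p = 0.00161) were lower too. Hat1, a histone acetyltransferase gene 86.5 kb away, was higher (0.52, adjusted p = 3.84e-05). At day 3, 0 were higher and 3 lower, with or without cKO replicate 4, where 48.1% of all genes tested were called. Itga6 (−1.70, SE 0.230, edgeR adjusted p = 5.15e-04) then had a larger change than Dlx1 or Dlx2, in the other direction, and Metap1d (−0.74, adjusted p = 5.73e-04) one near the size of that of Dlx2.

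Around Dlx3 and Dlx4 lie 11 other protein-coding genes, of which 9 were tested: 5 were higher and 3 lower at day 0, and 4 were higher and 2 lower at day 3 (3 and 2 without cKO replicate 4, with Itga3 no longer called). These are 8 and 6 of 9 called, where 64.5% and 48.1% of all genes tested were called. The largest was Sgca, a muscle membrane gene, at day 3 (log2 fold change 3.14, SE 0.443, edgeR adjusted p = 6.38e-04). Col1a1, the bone collagen gene 167.1 kb from Dlx3, was lower at day 0 (−0.75, adjusted p = 0.00525) and higher at day 3 (0.77, adjusted p = 0.00514). Sdhaf3, the single such gene near Dlx6 and Dlx5, was called in neither culture comparison (−0.08 and 0.17, adjusted p = 0.568 and 0.392, and 0.09 at day 3 without cKO replicate 4, adjusted p = 0.652).

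**Figure D4:**
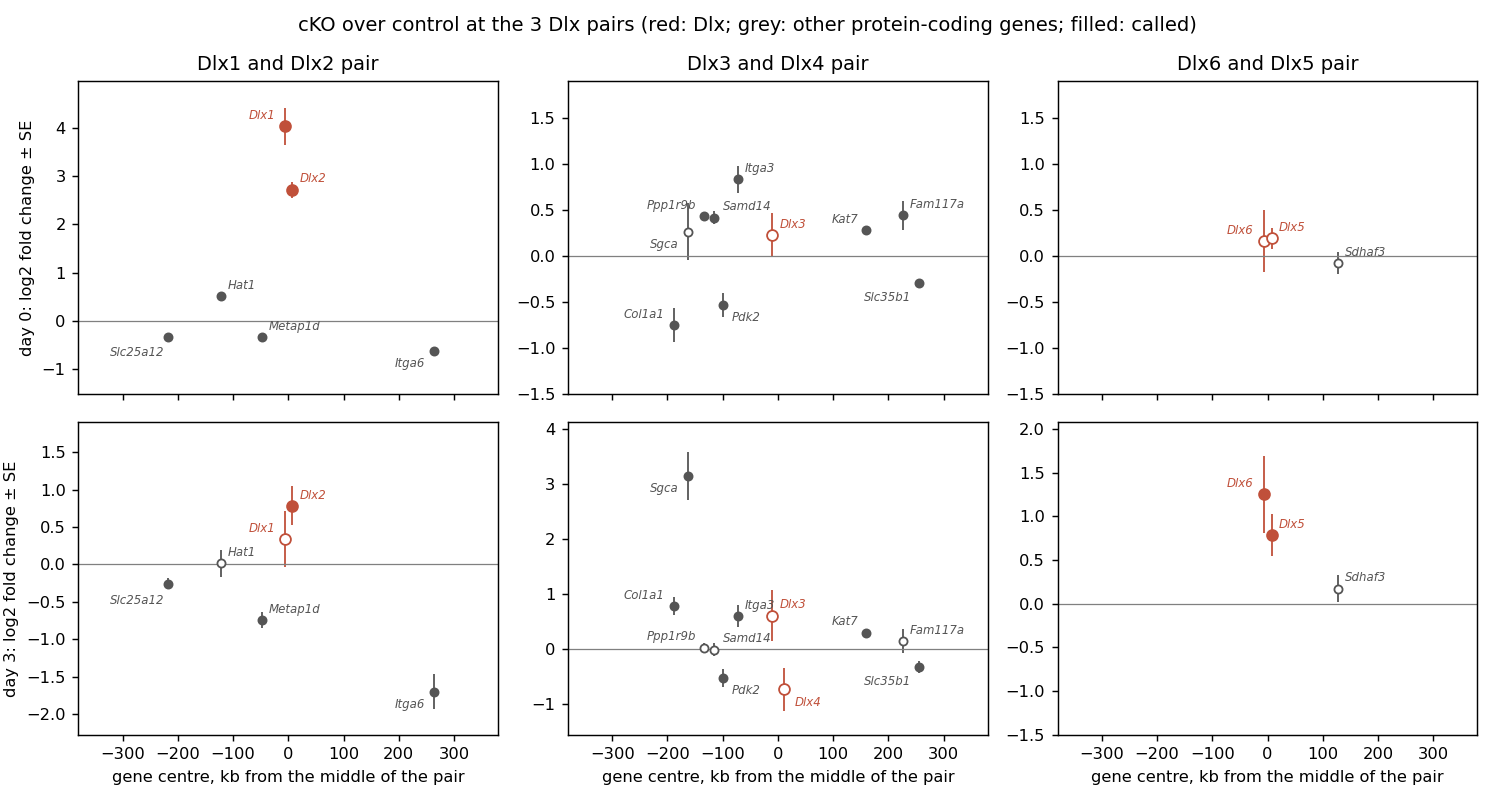
Log2 fold change ± SE, cKO over control, at day 0 (top) and day 3 (bottom) against the distance of each gene's centre from the middle of its Dlx pair in kb, with Dlx genes in red, other protein-coding genes in grey and called genes filled; the vertical scale differs between panels. At day 0 Dlx1 (4.03) and Dlx2 (2.72) stand above neighbours that lie between −0.62 and 0.52.

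The genes whose levels ran most alike were found by the Pearson r of log2(CPM + 0.5) over the 14 cultures, among 14266 other protein-coding genes. These 14 points share library preparation, depth and genotype within 4 groups, so r is a description of how group means and replicates line up. For Dlx1 they were the lysosomal amidase Naaa (0.977), the transcription factor Gata2 (0.969) and the spindle gene Psrc1 (0.960). Gata2 had means of 5.01 CPM in day 0 control, 12.6 in day 0 cKO, 21.7 in day 3 control and 27.2 CPM in day 3 cKO cultures, the same order of groups as Dlx1. For Dlx2 they were Ei24 (0.977), Ripk3, a kinase of necroptosis (0.976), and Rap2b (0.961). Dlx1 and Dlx2 had r = 0.901 with each other, rank 45 among the genes most like Dlx2 and rank 99 among those most like Dlx1.

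The other pairs ran together less closely. Dlx5 and Dlx6 had r = 0.691, and Dlx3 and Dlx4 had r = 0.621. The gene most like Dlx3 was Rnf43, a ubiquitin ligase of Wnt receptors (0.940), followed by Ccdc74a (0.933) and Blvrb (0.913). Rnf43 averaged 0.0443 CPM in day 0 control and 0.0439 CPM in day 0 cKO cultures, under the floor. Its r thus rests mainly on the day 3 cultures and the step between days. For Dlx4 it was Creld1 (0.972), followed by Prss12 (0.958) and Ero1lb (0.952). For Dlx5 it was Epb41l5 (0.908), followed by Cmip (0.905) and Ccdc71l (0.895), and for Dlx6 it was Fig4 (0.950), followed by Sh3gl3 (0.937) and Erich1 (0.904). The lowest r within the family was −0.15, between Dlx4 and Dlx5.

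Most skeletal genes listed as Dlx targets were higher in cKO at day 3, and those called in cartilage were lower; the difference between these settings was not tested. Of the 11 genes, 8 were higher and 1 lower in day 3 cKO cultures, with a median log2 fold change of 2.34 against 0.01 over all genes tested, of which 48.1% were called and 25.5% called higher. They were Spp1 (osteopontin, 3.52, edgeR adjusted p = 8.07e-05), Col10a1 (the collagen of hypertrophic cartilage, 3.28, adjusted p = 0.0402), Alpl (the mineralizing phosphatase, 2.87, adjusted p = 1.21e-04), Mmp13 (2.71), Ibsp (2.58), Bglap and Bglap2 (2.34 and 2.13) and the osteoblast factor Sp7 (1.48). Bglap and Bglap2 are near-identical copies, so the split of reads between them is uncertain. Ihh, the hedgehog ligand of prehypertrophic cells, was lower (−2.88, adjusted p = 2.65e-04). Without cKO replicate 4, 8 were again higher and 1 lower, with a median of 2.03, but Col10a1 was no longer called (0.82, edgeR adjusted p = 0.0804) and Dmp1, a mineral matrix protein, was (1.94, adjusted p = 0.00797).

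At day 0, 3 of 9 tested targets were higher and 2 lower (median −0.46 against 0.01 over all genes, of which 64.5% were called). Dmp1 (1.09), Spp1 (0.98) and Runx2 (0.46) were higher, and Ihh (−2.58) and Col10a1 (−0.78) were lower. In cartilage 0 of 8 tested were higher and 5 lower (median −1.19 against 0.01 over all genes, of which 6.19% were called), namely Mmp13 (−2.17), Col10a1 and Ihh (both −1.48), Alpl (−1.16) and Runx2 (−0.66). These directions sat beside hypertrophic marker sums of 564 to 1150 CPM in control and 73.0 to 562 CPM in cKO cartilage, and several of the genes are on both lists. Of the other cell types, some marker lists were lower in cKO cartilage and some were not. The 4 osteoclast markers summed to 120 to 437 CPM in control and 56.6 to 116 CPM in cKO libraries, with 3 of 3 tested called lower, among them Mmp9 (−4.59, edgeR adjusted p = 5.12e-04). The 4 leukocyte and erythroid markers summed to 140 to 723 and 14.8 to 319 CPM, with 2 of 2 tested, the globin genes Hba-a1 and Hbb-bs, called lower. The 9 chondrocyte markers summed to 61100 to 92600 and 27700 to 56100 CPM, with 3 of 9 called lower, and the 6 osteoblast markers to 27400 to 54800 and 13100 to 32700 CPM, with 0 of 3 tested called. The 5 fibroblast, tendon and joint surface markers summed to 6410 to 8790 CPM in control and 6210 to 7770 CPM in cKO cartilage. Endothelial markers summed to 52.9 to 98.0 and 32.0 to 75.9 CPM, and keratinocyte markers to 16.7 to 41.1 and 20.9 to 35.3 CPM. On these lists 0 of 5, 0 of 3 and 0 of 2 tested were called. The part of these cell types in the fall of the targets was not tested. The interaction was called for 5 of 11 targets (6 without day 3 cKO replicate 4), all higher at day 3 relative to day 0, where 16.8% of all genes tested were called.

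**Figure D5:**
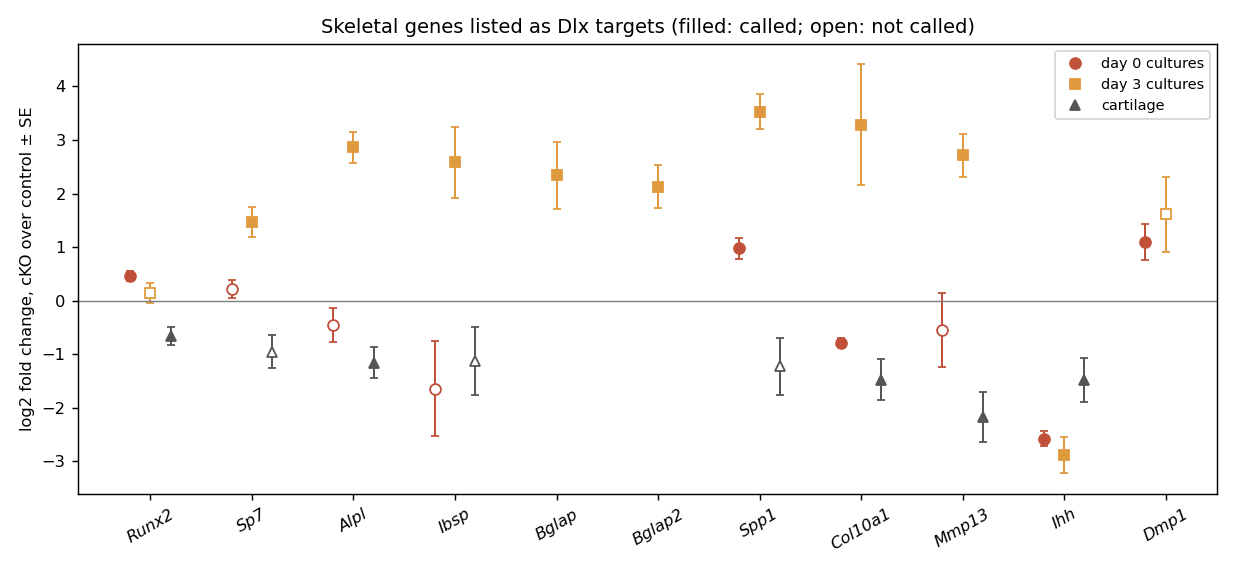
Log2 fold change ± SE, cKO over control, of the 11 skeletal genes listed as Dlx targets in day 0 cultures, day 3 cultures and cartilage, from edgeR; filled symbols were called. At day 3, 8 genes are called higher and Ihh lower, and in cartilage the 5 called genes are all lower, between −2.17 and −0.66.

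Among 18 BMP pathway genes, the inhibitory Smads were higher in cKO cultures. Smad6 and Smad7 had log2 fold changes of 0.76 and 1.09 at day 0 and 1.65 and 2.33 at day 3 (edgeR adjusted p = 3.75e-06, 1.39e-05, 3.03e-05 and 4.46e-04). The secreted BMP antagonists Nog (−0.62 and −1.67) and Grem1 (−1.03 and −0.80) were lower at both times. Id1, Id2 and Id3, direct BMP targets, were higher at day 0 (0.52, 0.56 and 0.31), and of these Id3 was called at day 3 (1.14, adjusted p = 1.00e-04). In all, 9 were higher and 5 lower at day 0, 6 higher and 5 lower at day 3 (7 and 6 without cKO replicate 4), and 0 higher and 1 lower in cartilage, with medians of 0.21, 0.26 and −0.28 against 0.01 over all genes in each comparison. The day 3 median was 0.087 without cKO replicate 4. These are 14 of 18, 11 of 18 and 1 of 16 tested, where 64.5%, 48.1% and 6.19% of all genes tested were called.

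Of 6 factors that bind Dlx proteins or share their sites, 3 were higher and 2 lower at day 0 and 2 higher and 1 lower of 5 tested at day 3 (medians 0.08 and 0.14 against 0.01 over all genes, of which 64.5% and 48.1% were called). At day 3 without cKO replicate 4, 3 were higher and 1 lower of 6 tested, with a median of 0.20. Msx2, a homeodomain repressor and partner of Dlx proteins, had log2 fold changes of 0.44 at day 0 and 2.26 at day 3 (edgeR adjusted p = 0.0148 and 0.00613). Msx1 was higher at day 0 (0.30, adjusted p = 0.0216) and not called at day 3 (−0.03, adjusted p = 0.947). Maged1, a Dlx5-binding protein, was lower at both times (−0.58 and −0.46, adjusted p = 8.41e-07 and 0.0158). In cartilage 0 were higher and 1, Runx2, lower of 4 tested.

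Of 30 other homeobox genes related to Dlx, 12 were tested at day 0, with 8 higher and 3 lower (median log2 fold change 1.07 against 0.01 over all genes), where 64.5% of all genes tested were called and 33.0% called higher. En2 (2.73), Hhex (2.56) and Hmx2 (2.48) had the largest values, and the largest fall was that of Hmx3 (−1.14). At day 3, 7 were tested, with 4 higher, led by Emx2 (2.73), and 2 lower, Nkx3-2 (−1.68) and Barx1 (−1.16), where 48.1% of all genes tested were called and 25.5% called higher. The day 3 median was 1.003, and 0.74 with the same counts without cKO replicate 4. As the filter keeps a gene that reaches it in a single genotype, some of these genes may have been tested through cKO cultures alone. The counts and medians of this list may therefore depend on the filter. In cartilage 3 were tested, and Barx1 was lower (−0.54, edgeR adjusted p = 0.0414).

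The genes tied to 2 of the pairs were mostly below the filter. Of 13 jaw and limb patterning genes tied to Dlx5 and Dlx6, 6 were tested at day 0, with Alx1 (1.80) and Trp63 (0.80) higher and Barx1 (−1.07) and Pou3f3 (−0.90) lower, where 64.5% of all genes tested were called. At day 3, 5 were tested, with Trp63 (1.83) higher and Barx1 lower, and in cartilage 2, with Barx1 lower. Without cKO replicate 4, Alx4 (2.96, edgeR adjusted p = 0.00132) and Hand2 (2.204, adjusted p = 0.0173) were also called higher at day 3. Of 8 interneuron genes tied to Dlx1 and Dlx2, 1 was tested at day 0, Lhx6, which was higher (2.29, edgeR adjusted p = 3.75e-04). At day 3 and in cartilage 0 of the 8 passed the filter. Without cKO replicate 4, 1 was tested at day 3, the calcium-binding protein Pvalb, which was higher (5.42, edgeR adjusted p = 7.46e-05). Pvalb is also a fast muscle gene. The filter keeps a gene that reaches it in a single genotype, so Lhx6 and Pvalb may have been tested through cKO cultures alone.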

How the data were processed

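Gene expression was measured in 22 libraries. For the 14 cultures the authors deposited estimated counts; for the 8 cartilage libraries they deposited whole-number counts, used here, and estimated counts, used as an alternative. Estimated counts were rounded to whole numbers before testing. Culture libraries were made with a directional kit and cartilage libraries by a barcoded 3′ method with molecular identifiers, per the labels' protocols. The submitters' processing notes name GRCm38, and for cartilage UMI-tools 1.1.1, Trim Galore 0.6.7, HISAT2 2.2.1, featureCounts 2.0.1 and DESeq2 1.34.0. Which cartilage table these made, and the counting tool and strand setting of the cultures, are not given in the sources used here.

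Genotype was fitted on the libraries of day 0, of day 3 and of cartilage alone (there with sex as covariate), and the interaction and the change between days over all 14 cultures, with edgeR 4.0.16 in R 4.3.3 (quasi-likelihood test, TMM scaling, filterByExpr at 10 counts and 15 in total, p-values adjusted by Benjamini and Hochberg across the genes tested). Calls are at adjusted p under 0.05. CPM of the cultures were scaled over all 14 together. Members that failed the filter were compared by an exact permutation test of CPM. Of 34866 culture gene IDs, 34582 matched a symbol table. Alternatives were DESeq2 1.42.0, its size factors in edgeR, no filter, a replicate block, other sample sets or tables, and leaving out each library. The fit was tested on simulated data. Per-sample columns left unused were 0. Culture replicate numbers did not pair the genotypes: the deviations of same-numbered cultures correlated at −0.0634 to 0.14 at day 0 and −0.145 to −0.064 at day 3.

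The members, gene lists, marker lists and tests were chosen with earlier results of these data known. Named were the 6 members, their antisense genes, the 3 protein-coding genes most like each member, protein-coding genes within 250 kb of a pair, list genes called in a comparison, and Dnmt1. The list and neighbour values without day 3 cKO replicate 4 were added after the data were seen. Some genes of the lists are not reported here and are left out of the list counts.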

Additional observations from a re-analysis of the deposited data

Results flagged for a closer look

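In groups of 4 libraries, the gap between the highest sample and the next was compared with the range of the group for each member, in 24 groups; chance alone passes Dixon's critical value in about 1 in 20 groups. Dlx1 in day 3 control cultures reached 0.875 through replicate 1 (8.91 CPM against 2.64 to 3.42 CPM), the library whose removal brought its genotype difference to a call. In cartilage, the share was 0.888 for Dlx3 and 0.836 for Dlx5 in the control libraries, both through replicate 2 (12 and 26 counts). It was 1.0 for Dlx1 and 1.0 for Dlx2 in the cKO libraries, where a single library had 2 counts of Dlx1 and another had 1 count of Dlx2, and all the others had 0. A group with 0 in all libraries but 1 reaches 1.0 at any count.

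The genotype effect differed between day 3 and day 0 for Dlx1 (log2 difference −3.69) and Dlx2 (−1.96), by the interaction test of edgeR (adjusted p = 0.00196 and 0.00305).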

How the results depend on the processing

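Of 386 recomputed values of single members, 361 kept their direction and their side of the threshold, 16 lost and 6 gained a call, and 3 changed sign, all for differences that were not called. Without single libraries Dlx3 at day 0 ran from −0.012 (without cKO replicate 3) to 0.43, Dlx6 at day 0 from −0.078 (without cKO replicate 1) to 0.44 and the Dlx3 interaction from −0.12 (without day 3 cKO replicate 4) to 0.76. The calls of Dlx1 and Dlx2 at day 0, in the interaction and in the control change between days held in every alternative run. The number of members called at day 3, 3 in all libraries, ran from 0 to 3 when single libraries were left out; it was 0 without control replicate 2, and 1 without control replicate 3 or cKO replicate 2. Without the filter Dlx6 was not called at day 3 (1.24, adjusted p = 0.0614), and under DESeq2 Dlx3 was called in the control change (1.03, adjusted p = 0.0400).

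With the replicate block, Dlx2 at day 3 (0.83, adjusted p = 0.0516) and Dlx3 in the cKO change (1.09, adjusted p = 0.0636) lost their calls and Dlx5 gained one in the control change (−0.39, adjusted p = 0.0390). In these cultures the replicate numbers are shared labels only. The block left the count of members called at 2 at day 0, 2 in the interaction and 0 in cartilage, and gave 2 at day 3, 4 in the control change and 3 in the cKO change. Shares of all genes called are given for the main fits alone. Counts of members or list genes called in alternative runs therefore have no share of their own beside them. Depth limits the cartilage values, where 3 of the 6 members never passed 3 counts in the whole-number table. Where a call changed, the cause was not tested.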
